A study of Mus musculus with 32 samples.

Results

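Cells make cholesterol from acetyl-CoA through the mevalonate pathway, and they build fatty acids from the same precursor through acetyl-CoA carboxylase and fatty acid synthase. Transcription of both pathways is driven largely by the sterol regulatory element binding proteins (SREBPs), encoded by Srebf1 and Srebf2. SCAP carries the SREBP precursors from the endoplasmic reticulum to the Golgi for cleavage when sterols are scarce, and INSIG proteins hold them back when sterols are plentiful; in mice SREBP-2 acts mainly on sterol genes and SREBP-1c mainly on fatty acid genes. Dividing blood progenitors use both products for new membrane.

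The genes described here are those of cholesterol and fatty acid synthesis, taken from the count table by a list of names. Of the 32 genes named, 31 had a row among the 33924 genes of the count table, and Hmgcs1 was not analysed here. They comprise 15 sterol synthesis enzymes, 5 genes of sterol regulation and transport (Srebf1, Srebf2, Scap, Insig1 and Stard4) and 11 fatty acid genes. All 31 passed the filter on low counts in every fit, although Insig1 and Me1 averaged under 10 CPM (reads of a gene scaled to the size of the library) in both cell types, as did Scd1 and Tm7sf2 in LSK cells.

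RNA was sequenced from sorted cells of mice that had received Jak2V617F marrow. In these mice the mutant allele was switched on ex vivo with Dre mRNA, lethally irradiated recipients were grafted with the activated cells, and tamoxifen (TAM) could later turn on Cre and remove the mutant allele. The groups were 3 days of TAM, 7 days of TAM, 7 days of ruxolitinib (a JAK1 and JAK2 inhibitor) and vehicle, each sorted as megakaryocyte-erythroid progenitors (MEP) or as lineage negative, Sca1+, Kit+ stem and progenitor cells (LSK). All groups carried the Jak2V617F genotype label and every recipient was irradiated; no group received TAM without a deletable mutant allele, so deletion and tamoxifen exposure cannot be told apart, and the sources used here do not give the animals' ages. The labels name a batch A, holding both TAM groups with vehicle A, and a batch C, holding ruxolitinib with vehicle C; both vehicle groups are labelled day 0. There were 4 MEP libraries for TAM day 3, 3 for TAM day 7, 3 for ruxolitinib, 3 for vehicle A and 3 for vehicle C. LSK cells gave 3 libraries for TAM day 3, 4 for TAM day 7, 3 for ruxolitinib, 4 for vehicle A and 2 for vehicle C.

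Libraries held 11160696 to 28838622 counts in batch A and 26511752 to 55473241 in batch C. Every vehicle C library carries the description number of a vehicle A library of its cell type, so the vehicle A and vehicle C comparisons are not independent. LSK vehicle A replicates 3 and 4 have no such counterpart in vehicle C. Jak2 itself passed the test in no comparison; its counts cover the whole gene, and the sources used here do not give which part is deleted. Cish, a feedback inhibitor induced by JAK2 and STAT5, averaged 20.5 CPM in vehicle A, 0.544 CPM at TAM day 3 and 1.42 CPM at TAM day 7 in MEPs (log2 fold change -5.23 ± 0.45 (SE) at day 3 and -3.85 ± 0.47 at day 7). It was also lower in MEPs under ruxolitinib, and in LSK cells it was called under no treatment. Most defining markers followed the sort: 7 of 8 MEP and erythroid markers were higher and 7 of 8 stem cell markers lower in MEP than in LSK vehicle A libraries. The 1 other stem cell marker was called higher in MEPs (log2 fold difference 1.07). In batch C, too, 1 of 8 stem cell markers was called higher in MEPs (1.66). LSK TAM day 7 replicate 4 correlated with the other 3 of its group at 0.87 to 0.92 (log2 CPM over 9694 genes), against 0.89 to 0.95 with vehicle A, and the LSK day 7 results are given with and without it. LSK vehicle A libraries were also uneven, correlating with each other at 0.86 to 0.9. Their replicate 2 correlated with vehicle C at 0.92 to 0.94. Their replicate 4 held 11000 CPM of B and plasma cell markers, against 291.6, 865.1 and 1948 CPM in replicates 1, 2 and 3.

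Promoters are shown for Cyp51, Idi1 and Mvd, the enzymes that passed the test in MEPs at both TAM times. Each window runs from 250 bases before to 50 after the gene start in RefSeq (GRCm38.p6), read 5′ to 3′ on the gene's strand, and capitals mark CCAAT (the letters read by NF-Y) and GGGCGG (those read by Sp1) on either strand, the reverse forms being ATTGG and CCGCCC. The motifs do not overlap each other. Cyp51 lies at chr5:4104648-4104947 on the minus strand, Idi1 at chr13:8885356-8885655 on the plus strand, and Mvd at chr8:122443373-122443672 on the minus strand.
Cyp51: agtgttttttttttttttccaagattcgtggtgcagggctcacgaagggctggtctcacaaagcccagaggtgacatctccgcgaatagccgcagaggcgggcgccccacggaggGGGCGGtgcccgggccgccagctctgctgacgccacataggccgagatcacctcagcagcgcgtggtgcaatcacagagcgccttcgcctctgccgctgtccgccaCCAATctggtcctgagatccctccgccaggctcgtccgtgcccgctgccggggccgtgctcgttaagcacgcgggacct
Idi1: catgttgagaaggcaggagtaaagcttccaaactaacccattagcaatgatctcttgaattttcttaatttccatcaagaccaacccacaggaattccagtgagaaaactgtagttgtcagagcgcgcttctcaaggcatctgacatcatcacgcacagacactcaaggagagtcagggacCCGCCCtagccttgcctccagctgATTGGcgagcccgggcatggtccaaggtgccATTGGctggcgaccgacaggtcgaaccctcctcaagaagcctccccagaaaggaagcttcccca
Mvd: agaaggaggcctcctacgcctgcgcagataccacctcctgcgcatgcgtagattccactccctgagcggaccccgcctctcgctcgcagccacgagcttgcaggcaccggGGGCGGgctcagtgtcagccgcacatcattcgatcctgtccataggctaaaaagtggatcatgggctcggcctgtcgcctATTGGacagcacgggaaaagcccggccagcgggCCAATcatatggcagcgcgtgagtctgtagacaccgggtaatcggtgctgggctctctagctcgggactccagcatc
CCAAT was found in 18 of the 24 member genes with a RefSeq promoter (75%) and GGGCGG in 19 (79.2%), against 41.1% and 38.2% of 27025 genes. Among sterol enzymes each motif was in 11 of 12 promoters (91.7%), and among fatty acid genes in 4 of 8 (50%). The E-box CACGTG was in 4 of the 24 (16.7%, against 8.09% of all genes). TCACNCCAC, one spelling of the sterol regulatory element, was in the windows of 0 of the 24 member genes and of 1.44% of all genes. These matches describe the letters of a window and say nothing of what binds there.

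In MEPs 7 days of TAM lowered part of the synthesis pathway and 3 of its 5 regulation and transport genes. Of the 31 genes, 13 were lower and 0 higher at an adjusted p under 0.05 (edgeR quasi-likelihood test, Benjamini-Hochberg adjustment over all genes), where 7.03% of the 25274 genes tested were lower. Among the 8052 genes averaging at least 10 CPM, the level range of 29 of the members, 20.7% were lower. The 13 were 7 sterol enzymes (Cyp51, Sqle, Idi1, Ebp, Mvd, Pmvk and Acat2), 3 regulators and transporters (Srebf1, Scap and Stard4) and 3 fatty acid genes (Fads2, Elovl6 and Fads1). The median log2 fold change was -1.0 over sterol enzymes, -1.03 over regulators and transport and -0.65 over fatty acid genes, beside -0.39 over all genes of at least 10 CPM. All 15 sterol enzymes had a negative estimate, as did 5 of 5 regulators and 9 of 11 fatty acid genes.

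Cyp51, the lanosterol demethylase, measured 116, 122 and 87.6 CPM in the 3 vehicle A MEP libraries, 63.3, 45.3, 52 and 46.1 CPM at TAM day 3 and 50, 22.6 and 46 CPM at TAM day 7. Neither TAM group overlapped vehicle A. Its log2 fold change was -1.07 ± 0.24 at day 3 (adjusted p = 0.02563, edgeR) and -1.45 ± 0.27 at day 7 (adjusted p = 0.0005413), a level 2.74-fold lower at day 7. Idi1, the isopentenyl diphosphate isomerase, read 45.4, 47.8 and 41.8 CPM in vehicle A, 27.9, 18.2, 23.5 and 14 CPM at day 3 and 17.3, 10.9 and 20.5 CPM at day 7. Here too the groups were separate, with log2 fold changes of -1.11 ± 0.26 (adjusted p = 0.03368, edgeR) at day 3 and -1.47 ± 0.29 (adjusted p = 0.001137) at day 7. Mvd, the mevalonate diphosphate decarboxylase, stood at 19.2, 28 and 17.7 CPM in vehicle A, 7.7, 9.11, 8.38 and 8.25 CPM at day 3 and 10, 9.95 and 9.18 CPM at day 7. All 7 TAM libraries lay at 10 CPM or below and all vehicle A libraries above 17 CPM (log2 fold change -1.37 ± 0.26 at day 3 and -1.16 ± 0.28 at day 7).

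Squalene epoxidase (Sqle), Ebp, Pmvk and Acat2, also called at day 7, had passed no threshold at day 3. Sqle, the enzyme that commits squalene to sterols, measured 140, 185 and 130 CPM in vehicle A, 115, 93.4, 110 and 94.8 CPM at day 3 and 71.9, 35.9 and 68.5 CPM at day 7. Its day 7 libraries lay below all others (log2 fold change -1.37 ± 0.26 against vehicle A, adjusted p = 0.0006677, edgeR). Ebp, the sterol isomerase, measured 108, 102 and 88.6 CPM in vehicle A, 81.1, 76, 71.4 and 50.6 CPM at day 3 and 58.5, 33.4 and 56.4 CPM at day 7, a log2 fold change of -1.01 ± 0.25 at day 7. Pmvk, the phosphomevalonate kinase, had 34, 17.2 and 32.6 CPM at day 7 against 48.8, 76.8 and 45 CPM in vehicle A (log2 fold change -1.02 ± 0.28). Day 7 replicate 2 was the lowest library for these 3 enzymes, and neither gene of the pair Ebp and Pmvk overlapped vehicle A at day 7. Acat2, the cytosolic thiolase at the head of the pathway, which was chosen for naming after its values were seen, changed least among the 7 enzymes called at day 7 (-0.84 ± 0.25, adjusted p = 0.03412, edgeR).

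The remaining 8 sterol enzymes did not pass the test at day 7. Fdps, which makes farnesyl diphosphate, had an estimate of -1.08 ± 0.42 (adjusted p = 0.1334, edgeR) with vehicle A libraries spread from 67.9 to 277 CPM and day 7 libraries from 50.2 to 90.1 CPM. Fdft1, the squalene synthase, was similar in that vehicle A ran from 26.7 to 73.9 CPM and day 7 from 14.7 to 29.7 CPM (-1.0 ± 0.35, adjusted p = 0.08373). In both genes vehicle A replicate 2 was the high library. Nsdhl, a sterol dehydrogenase, missed the threshold at -0.75 ± 0.25 (adjusted p = 0.0643). Dhcr7, a reductase of the final steps to cholesterol, and Hsd17b7, a sterol ketone reductase, stood at -0.16 ± 0.27 and -0.01 ± 0.28.

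**Figure D1:**
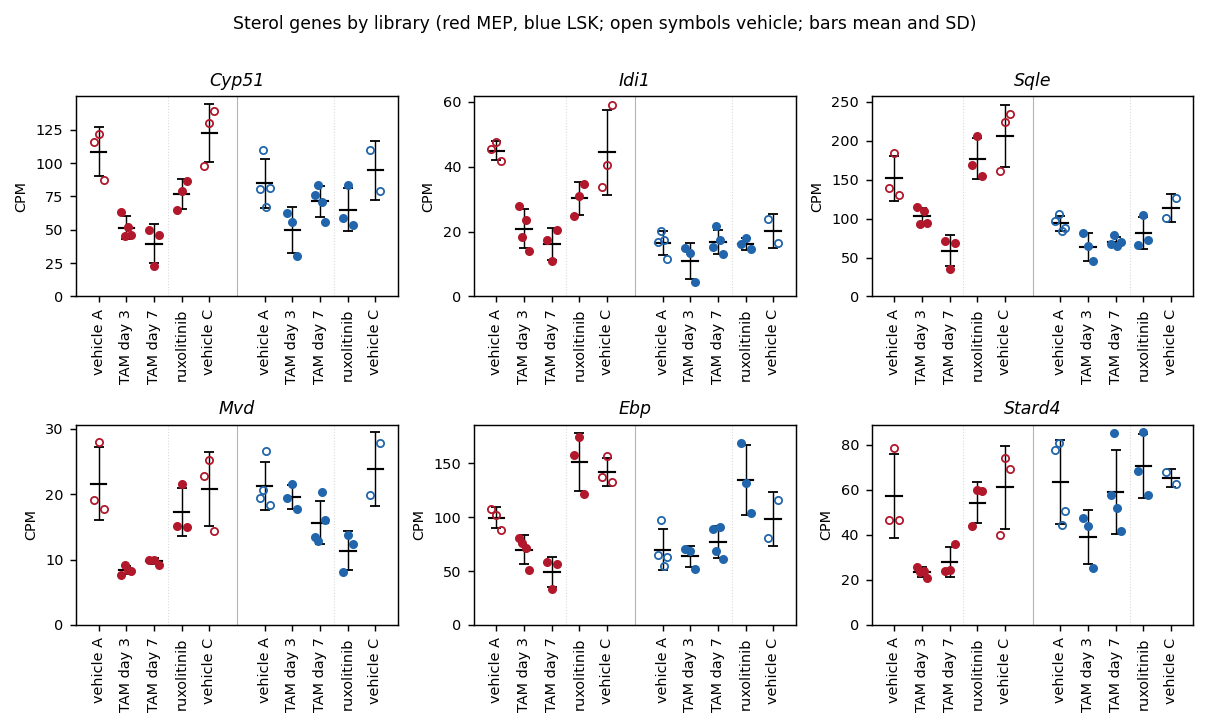
Normalised CPM (y axis, linear) of 5 sterol enzymes and of Stard4 in every library, MEP in red and LSK in blue, with open symbols for vehicle and bars for mean and SD. In MEPs Cyp51 read 22.6 to 50 CPM at TAM day 7 and 87.6 to 122 CPM in vehicle A, and Mvd separated both TAM groups from vehicle A.

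Among the regulators Srebf1 and Scap were called at day 7, with Stard4, and Srebf2 and Insig1 were not. Srebf1, which encodes SREBP-1a and SREBP-1c, measured 175, 368 and 198 CPM in vehicle A MEPs, 286, 314, 340 and 238 CPM at day 3 and 35.8, 14.8 and 28.7 CPM at day 7. Day 3 lay within the vehicle A range, and every day 7 library lay far below it: the log2 fold change was -3.22 ± 0.34 at day 7 (adjusted p = 2.248e-07, edgeR), or 9.33-fold lower. Scap, the SREBP escort, read 57.8, 67.5 and 58.4 CPM in vehicle A, 43.2, 67.4, 57.2 and 50.6 CPM at day 3 and 11.6, 13.5 and 13.7 CPM at day 7. All day 7 libraries lay far below the other batch A MEP libraries, and 3 of the 4 day 3 libraries lay below the vehicle A range without a call. The log2 fold change was -2.25 ± 0.24 at day 7 (adjusted p = 3.037e-07, edgeR), 4.75-fold lower. Srebf2, which encodes SREBP-2, spread more widely, with 128, 217 and 99.1 CPM in vehicle A, 130, 120, 126 and 99.7 CPM at day 3 and 106, 30 and 91.9 CPM at day 7. Its day 7 estimate of -0.96 ± 0.34 did not pass (adjusted p = 0.08861), and its day 7 and vehicle A libraries overlapped. Insig1, the SREBP retention factor, stayed between 1.46 and 3.75 CPM in all of these libraries and its day 7 estimate was -0.16 ± 0.49.

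Stard4, a cytosolic sterol transport protein, kept a different course from the other regulators. It measured 46.5, 78.5 and 46.5 CPM in vehicle A, 25.6, 23.3, 24.1 and 20.6 CPM at day 3 and 24.1, 24.3 and 35.8 CPM at day 7. It was already lower at day 3 (-1.29 ± 0.25, adjusted p = 0.007227, edgeR) and stood at -1.03 ± 0.27 at day 7.

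Of the 11 fatty acid genes 3 were called at day 7. The enzymes that make palmitate did not pass the test at day 7: Acly, the ATP citrate lyase, had an estimate of -0.37 ± 0.26, Acaca, the acetyl-CoA carboxylase, of -0.51 ± 0.22 and Fasn, the fatty acid synthase, of -0.65 ± 0.30. Fads2, the desaturase that starts long polyunsaturated fatty acid synthesis, read 211, 218 and 155 CPM in vehicle A, 215, 168, 194 and 149 CPM at day 3 and 86.7, 37.2 and 83.7 CPM at day 7. Day 7 lay below every other library of batch A MEPs (-1.49 ± 0.28, adjusted p = 0.0005661, edgeR). Its partner desaturase Fads1 had 35.8, 28.6 and 37.5 CPM at day 7 against 56.1, 80.1 and 53.9 CPM in vehicle A (-0.90 ± 0.25), while day 3 libraries lay between 66.3 and 91 CPM. Elovl6, which extends palmitate to stearate, measured 49.4, 51.9 and 45.6 CPM in vehicle A, 39.3, 31, 30 and 25.2 CPM at day 3 and 24.3, 18.5 and 24.8 CPM at day 7, without overlap between day 7 and vehicle A (-1.12 ± 0.24).

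Scd2, a stearoyl-CoA desaturase, differed in order: it read 428, 757 and 401 CPM in vehicle A, 165, 231, 237 and 150 CPM at day 3 and 319, 211 and 315 CPM at day 7. It was called at day 3 (-1.43 ± 0.27, adjusted p = 0.005677, edgeR) and missed the threshold at day 7 (-0.91 ± 0.29, adjusted p = 0.05415). Scd1 and Scd2 are close paralogs, and the sources used here do not give how reads shared between them were counted. Acss2, the cytosolic acetyl-CoA synthetase, was the 1 member that rose at day 3: it measured 16.4, 28.7 and 22.8 CPM in vehicle A, 39.9, 120, 71.2 and 90 CPM at day 3 and 19.2, 15.9 and 18.9 CPM at day 7. The rise was 3.54-fold (log2 1.82 ± 0.35, adjusted p = 0.006747, edgeR), and no rise was left at day 7 (-0.33 ± 0.36). This gene also differed between vehicle groups, vehicle C MEP libraries exceeding the vehicle A libraries of the same description number by 1.54 on the log2 scale (range 1.11 to 2.37, 3 numbers), where the median of expressed genes was 0.31; the part of such a shift in the day 3 value was not tested.

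At day 3 in MEPs the calls were fewer. Cyp51, Idi1, Mvd, Stard4 and Scd2 were lower and Acss2 higher, 6 of 31, where 1.21% of all genes were called in either direction. The median was -0.51 over sterol enzymes, with 14 of 15 negative, and -0.29 over fatty acid genes, beside -0.01 over genes of at least 10 CPM. Leaving out vehicle A replicate 1, 2 or 3 left 3, 2 and 3 members called at day 3. At day 7 leaving out vehicle A replicate 2, the highest of the 3 for 23 of the 31 members, left 8 called, and Acat2 (-0.67), Mvd (-0.91), Pmvk (-0.74), Stard4 (-0.72) and Fads1 (-0.68) then missed the threshold. The day 3 and day 7 comparisons share vehicle A.

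**Figure D2:**
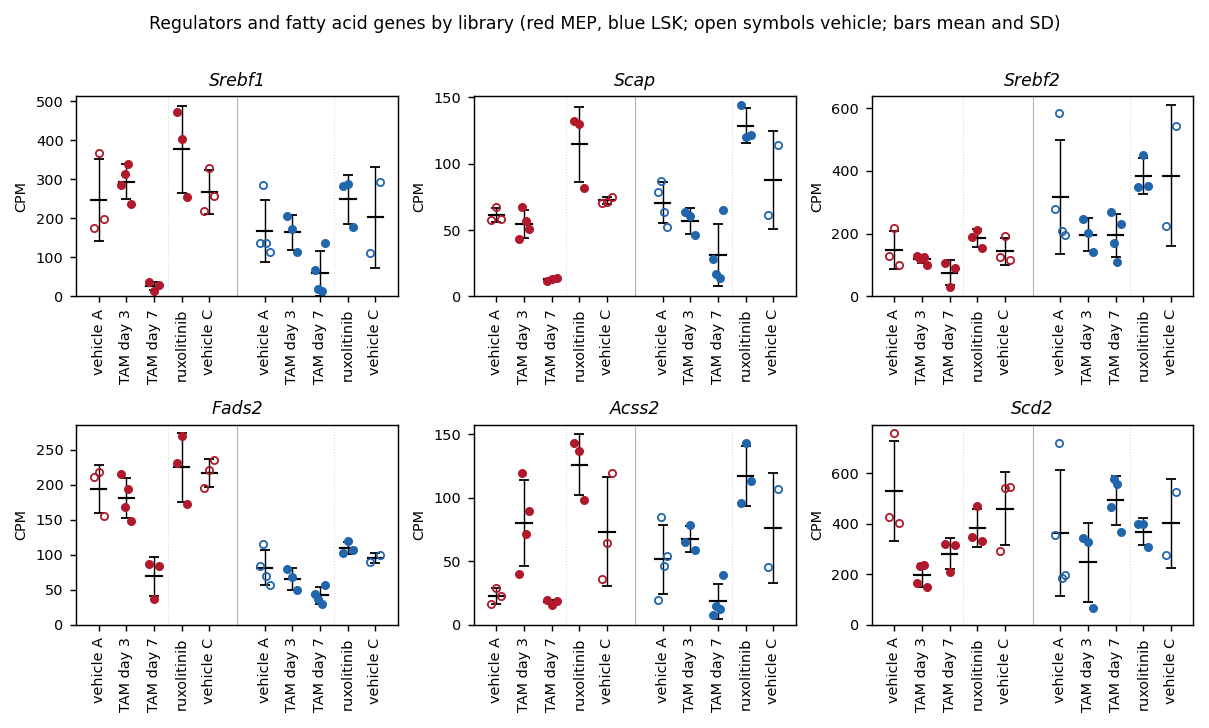
Normalised CPM (y axis, linear) of Srebf1, Scap, Srebf2, Fads2, Acss2 and Scd2 in every library, MEP in red and LSK in blue, with open symbols for vehicle and bars for mean and SD. MEP Srebf1 read 14.8 to 35.8 CPM at TAM day 7 and 175 to 368 CPM in vehicle A, and 1 LSK day 7 library, at 138 CPM, lay above the other 3.

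Cyp51, Idi1, Mvd and Stard4 were lower than vehicle A at both TAM times. At day 3 the calls of Cyp51 and Idi1 were each lost in 6 of the 7 fits that left out 1 library, with adjusted p up to 0.1446 and 0.1474 (edgeR). The direct comparison of day 7 with day 3 in MEPs called 6 of 31 lower and 0 higher, where 6.43% of all genes were lower. Among genes of at least 10 CPM 18.6% were lower, so the share of members called was close to that background. The median over members was -0.38, beside -0.33 over those genes. Srebf1 was 11.1-fold lower at day 7 than at day 3 (log2 -3.48 ± 0.33, adjusted p = 3.006e-08, edgeR) and Scap differed by -2.08 ± 0.23. Acss2 (-2.15 ± 0.36), Fads2 (-1.39 ± 0.26), Fads1 (-1.20 ± 0.24) and Sqle (-0.81 ± 0.24) were the other 4. Of the sterol enzymes already called at day 3, Cyp51, Idi1 and Mvd, none was called between the 2 times.

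The day 7 MEP libraries also differed in marker content and in scaling. Proliferation genes summed to 2950 to 5320 CPM at TAM day 7, against 7280 to 9660 CPM in vehicle A, and 11 of 16 were lower; at day 3 their sum was 6540 to 8820 CPM and 0 of 16 were lower. Megakaryocyte markers summed to 268 to 405 CPM at day 7, against 65.8 to 101 CPM in vehicle A, with 7 of 7 tested higher, and granulocyte and monocyte markers to 62.7 to 92.7 CPM against 18 to 20.2 CPM, with 4 of 8 higher. B and plasma cell markers summed to 41 to 63.3 CPM at day 7, against 11.4 to 13.9 CPM in vehicle A, with 2 of 8 higher. T and NK cell markers summed to 52.4 to 102 CPM, against 8.25 to 28.3 CPM, with 1 of 6 tested higher. MEP and erythroid markers summed to 6070 to 9160 CPM at day 7, against 7340 to 11400 CPM in vehicle A, with 4 of 8 lower. No marker was at 0 in every library of a group. The part of these shifts in the values of the lipid genes was not tested, and in bulk libraries fewer cells of a type and less RNA per cell cannot be told apart. Of all genes tested at day 7, 1778 were lower and 350 higher; with library totals alone as the scale the split was 1072 lower and 1429 higher, and 9 members were called, 8 of them lower.

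Other genes of the sterol pathway at day 7 included 3 of 8 further enzymes that fell: Sc5d, the lathosterol oxidase (-1.13 ± 0.24), Lbr, a sterol reductase of the nuclear envelope (-1.03 ± 0.25), and Msmo1, the methylsterol oxidase (-0.92 ± 0.23). Msmo1 was the 1 of 8 called at day 3 (-1.11 ± 0.21). Of 10 genes of SREBP processing and sterol uptake, Scarb1 was called at day 7. This scavenger receptor for lipoprotein cholesterol measured 227, 367 and 244 CPM in vehicle A, 326, 285, 274 and 225 CPM at day 3 and 27.2, 13.7 and 27.8 CPM at day 7 (-3.61 ± 0.29, adjusted p = 4.776e-09, edgeR).

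Of 9 genes of LXR and sterol efflux, 1 rose and 1 fell at day 7. Abcg1, a sterol exporter, measured 24.1, 17.7 and 22.9 CPM at day 7 against 6.01, 3.83 and 7.19 CPM in vehicle A (1.93 ± 0.47, adjusted p = 0.00797, edgeR), opposite in direction to the synthesis genes, and Lpcat3, a phospholipid acyltransferase, had -0.93. Among 15 further fatty acid and lipid genes, Fabp5 fell at both times and Elovl1, a fatty acid elongase, at day 7 (-1.09 ± 0.26). Fabp5, a fatty acid binding protein, read 236, 458 and 255 CPM in vehicle A, 29.6, 28.4, 26.6 and 24.9 CPM at day 3 and 23.4, 26.9 and 25.4 CPM at day 7. Its fall was complete by day 3 (-3.53 ± 0.28, adjusted p = 2.886e-08, edgeR; -3.65 ± 0.32 at day 7). Of 12 fatty acid oxidation genes 1 fell at day 7, Cpt2, a carnitine palmitoyltransferase (-0.96 ± 0.30), and none was called at day 3.

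**Figure D3:**
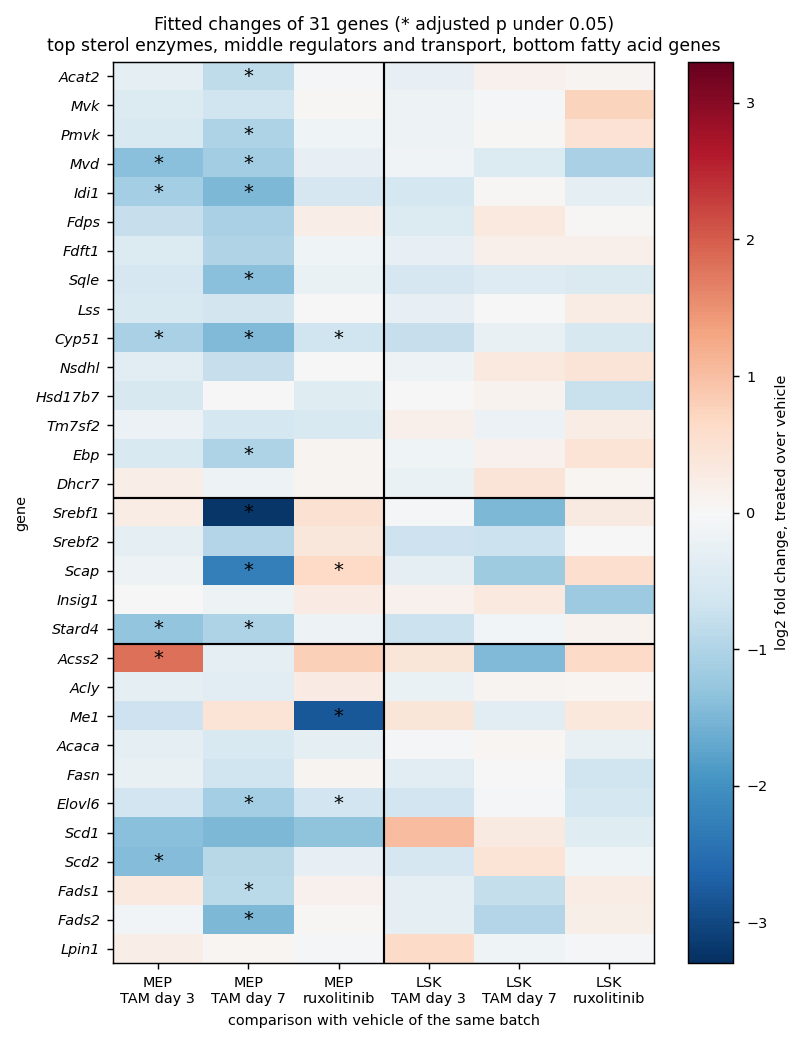
Fitted log2 fold changes (colour, treated over vehicle of the same batch) of the 31 genes in 6 comparisons, with an asterisk for an adjusted p under 0.05. The MEP TAM day 7 column holds 13 asterisks, all on lower values, and the 3 LSK columns hold none.

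Ruxolitinib left most of these genes near vehicle C in MEPs. With it 4 of 31 passed the test, with Cyp51 (-0.67 ± 0.26, adjusted p = 0.04312, edgeR), Elovl6 (-0.62 ± 0.24) and Me1 lower and Scap higher (0.66 ± 0.23), where 42% of all genes were called. Genes averaging under 10 CPM made up most of those calls, 53.4% of them being lower under ruxolitinib. Among genes of at least 10 CPM, 6.71% were lower and 7.36% higher, so the share of members called was close to that background. The median was -0.14 over sterol enzymes and -0.06 over fatty acid genes, beside 0.12 over genes of at least 10 CPM. Cyp51 measured 64.7, 78.7 and 86.8 CPM under ruxolitinib against 97.9, 130 and 139 CPM in vehicle C, and Elovl6 measured 40.2, 58.2 and 34 CPM against 64.2, 64 and 75.4 CPM. Neither overlapped vehicle C. Scap rose to 132, 130 and 82 CPM under ruxolitinib, against 70.7, 71.3 and 75.1 CPM in vehicle C.

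Srebf1 read 473, 403 and 255 CPM under ruxolitinib against 218, 330 and 257 CPM in vehicle C, and Srebf2 read 191, 212 and 155 CPM against 125, 194 and 115 CPM; both overlapped and neither was called. Sqle (169, 206 and 155 CPM against 161, 224 and 235 CPM) and Idi1 (24.9, 31.1 and 34.8 CPM against 33.8, 40.6 and 59 CPM) were likewise not called. Me1, the malic enzyme that supplies NADPH, was named after its values were seen: at 0.166, 0.085 and 0.176 CPM under ruxolitinib against 0.624, 1.25 and 1.13 CPM in vehicle C it was among the low genes. Calls under ruxolitinib were few enough to turn on single libraries, with 1 left without vehicle C replicate 2 or ruxolitinib replicate 1 and 2 left without ruxolitinib replicate 2 or 3. Megakaryocyte markers summed to 233 to 347 CPM under ruxolitinib against 38.1 to 83.7 CPM in vehicle C, and proliferation genes to 10700 to 14100 CPM against 10700 to 13500 CPM. Granulocyte and monocyte markers summed to 60.3 to 204 CPM under ruxolitinib against 5.5 to 17.3 CPM in vehicle C, with 5 of 8 higher and 2 lower. T and NK cell markers summed to 91.1 to 115 CPM against 6.76 to 35.8 CPM. Of the 6 tested, however, 1 was higher and 3 were lower, with a median log2 fold change of -1.66. The part of these marker shifts in the values was not tested. Of the wider lists, Sc5d (-0.59) and Msmo1 (-0.58) fell under ruxolitinib, as did Cyp27a1 (-2.33), Thrsp (-4.07), Mlxipl (-3.67), Acacb (-1.63), Ppara (-5.21) and Pdk4 (-2.86). They were 2 of 8 further sterol enzymes, 1 of 9 efflux genes, 3 of 15 further fatty acid and lipid genes and 2 of 12 oxidation genes. Over all genes averaging under 10 CPM the median was -2.27, and the part of that general fall in these values was not tested. Abcg1, which read 17.2, 17.7 and 18.6 CPM against 8.8, 5.01 and 0.938 CPM in vehicle C, rose by 1.86 ± 0.47, and Acadl rose by 1.38 ± 0.42.

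The ruxolitinib and TAM day 7 responses of MEPs differed for 8 of 31 members when the difference was tested, where 46% of all genes differed. Each response was taken against the vehicle of its own batch. Among genes of at least 10 CPM 27.9% were higher and 4.41% lower, with a median of 0.5. The share of members called higher, 7 of 31, was thus no larger than that background. In Srebf1 the ruxolitinib response exceeded the day 7 response by 3.71 ± 0.45 (adjusted p = 4.118e-06, edgeR) and in Scap by 2.91 ± 0.33. Differences in the same direction were called for Fads2 (1.55 ± 0.39), Srebf2 (1.33 ± 0.48), Sqle (1.14 ± 0.36), Ebp (1.10 ± 0.34) and Fads1 (1.05 ± 0.35), and the opposite for Me1 (-3.23 ± 0.82). Cyp51, Idi1 and Mvd were not among them. The count rose to 14 without vehicle C replicate 3 and to 13 without vehicle A replicate 3 or TAM day 7 replicate 3.

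**Figure D4:**
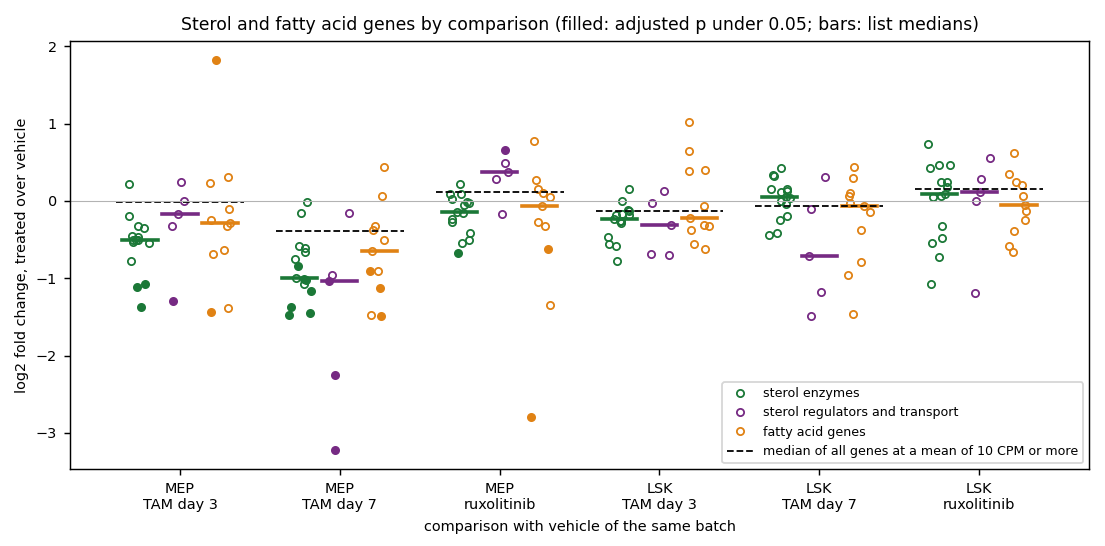
Fitted log2 fold changes (y axis, treated over vehicle) of each gene by list and comparison, filled where the adjusted p was under 0.05, with coloured bars for list medians and dashed lines for the median of all genes at a mean of 10 CPM or more. At MEP TAM day 7 the medians were -1.0 for sterol enzymes and -0.65 for fatty acid genes, and the LSK medians of both lists lay between -0.23 and 0.09.

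Set against each other, sterol enzymes fell below fatty acid genes in MEPs by a difference of medians of -0.22 at TAM day 3 and -0.35 at TAM day 7, and stood at -0.07 under ruxolitinib. In LSK cells the difference was -0.01 at day 3, 0.12 at day 7 and 0.14 under ruxolitinib. These are descriptions of 15 and 11 genes without a test. The MEP day 7 difference was -0.22 with genes of at least 10 CPM alone and between -0.38 and -0.09 when a library was left out.

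In LSK cells none of the 31 genes passed the test under any treatment, with edgeR or with DESeq2. At TAM day 3, 0% of all 26930 genes were called with edgeR (1019 had an unadjusted p under 0.05), and 3 members had an unadjusted p under 0.05: Cyp51 (-0.77 ± 0.28), Stard4 (-0.70 ± 0.30) and Sqle (-0.56 ± 0.24). Cyp51 measured 62.9, 55.7 and 30.4 CPM at day 3 against 80.5, 110, 66.8 and 81.4 CPM in vehicle A, without overlap. Under ruxolitinib 0.0223% of genes were called. There, 2 members had an unadjusted p under 0.05 with edgeR, Mvd (-1.07 ± 0.31) and Insig1 (-1.19 ± 0.53), where 8.92% of all genes had one. Insig1 read 5.76 and 28.8 CPM in the 2 vehicle C libraries. No gene of the wider lists of sterol, efflux, fatty acid synthesis or fatty acid oxidation genes was called in LSK cells under any treatment, with edgeR over all libraries. Mvd read 8.04, 13.7 and 12.4 CPM under ruxolitinib against 19.9 and 27.9 CPM in vehicle C.

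At TAM day 7 in LSK cells 0.104% of genes were called. An unadjusted p under 0.05 with edgeR was found for 5 members, all lower, and for 8.93% of all genes in either direction. Srebf1 measured 67.8, 19.8, 13.9 and 138 CPM at day 7 against 137, 285, 137 and 113 CPM in vehicle A, and Scap 28.3, 17.3, 13.8 and 65.2 CPM against 79.1, 86.9, 64 and 52.6 CPM. In both, day 7 replicate 4 lay within the vehicle A range and the other 3 below it. The estimates were -1.49 ± 0.55 for Srebf1 (adjusted p = 0.3181, edgeR) and -1.18 ± 0.37 for Scap (adjusted p = 0.2295). Acss2 (-1.46 ± 0.45), Fads2 (-0.96 ± 0.25) and Fads1 (-0.79 ± 0.29) were the others.

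Replicate 4 was singled out for its likeness to vehicle A, the group it is compared with. Leaving it out therefore favours more calls, and the p-values of that fit take no account of the choice. Without replicate 4, 911 of 26984 genes were called at LSK day 7 (3.38%), 863 of them lower, and 4 members passed. These were Scap (-1.83 ± 0.30, adjusted p = 0.0008801, edgeR), Srebf1 (-2.31 ± 0.51, adjusted p = 0.01237), Acss2 (-2.10 ± 0.41, adjusted p = 0.00474) and Fads2 (-1.15 ± 0.26, adjusted p = 0.01668). No sterol enzyme was among them, and the median over members was 0.03. Cyp51 read 75.8, 83.2, 70.9 and 55.6 CPM at day 7, against 80.5, 110, 66.8 and 81.4 CPM in vehicle A, and Idi1 15.4, 21.8, 17.4 and 13 CPM against 16.8, 20.2, 17.3 and 11.5 CPM. In both genes the groups overlapped. Between day 7 and day 3 in LSK cells 0.00743% of genes and 0 members were called with edgeR, against 1 member with DESeq2 and 3 without replicate 4. With edgeR 7 members had an unadjusted p under 0.05, where 7.93% of all genes had one. LSK libraries also varied in macrophage markers, which summed to 115 to 3620 CPM in vehicle A, 1360 to 9150 CPM at day 3 and 119 to 340 CPM at day 7. Granulocyte and monocyte markers summed to 1470 to 4860 CPM in vehicle A, 3830 to 6880 CPM at day 3 and 7810 to 15500 CPM at day 7, with 3 of 8 higher at day 7, and 1 MEP and erythroid marker, Tfrc, was lower (-1.89 ± 0.33). The part of these markers in the values was not tested.

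Whether MEPs and LSK cells responded differently was tested as the difference of their responses. No member passed at TAM day 7 with edgeR, where 0.458% of genes did, although 16 of 31 had an unadjusted p under 0.05, all toward a larger fall in MEPs, where 11.2% of all genes had one. DESeq2 called 2, and 2 passed without LSK vehicle A replicate 2. The estimates with the smallest adjusted p were those of Ebp (-1.25 ± 0.37, adjusted p = 0.1274, edgeR), Idi1 (-1.60 ± 0.48, adjusted p = 0.1372) and Cyp51 (-1.31 ± 0.41, adjusted p = 0.1617). All 15 sterol enzymes had a negative difference, with a median of -1.06 beside -0.32 over genes of at least 10 CPM; Srebf1 stood at -1.80 ± 0.70 and Scap at -1.13 ± 0.48. At day 3 no member passed, where 0.0529% of genes did. An unadjusted p under 0.05 was found for 3 members and for 3.51% of all genes with edgeR, and DESeq2 called 1 member. For ruxolitinib no member passed, where 0.292% of genes did. Here 3 members had an unadjusted p under 0.05 with edgeR, where 15% of all genes had one. DESeq2 called 0 members, and 1 passed without LSK ruxolitinib replicate 1.

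Vehicle-treated MEPs carried more transcript of the sterol enzymes than vehicle-treated LSK cells. In batch A 12 of 31 members were higher and 0 lower in MEPs, where 8.7% of all 28378 genes and 24.7% of those of at least 10 CPM were higher. In batch C 10 were higher and 0 lower, where 8.09% and 22.8% were. All 15 sterol enzymes had a positive estimate in both, with medians of 0.88 in batch A and 1.07 in batch C, beside 0.22 and 0.41 over genes of at least 10 CPM. Proliferation genes were higher in MEPs as well, 13 of 16 in batch A (median 1.06) and 12 of 16 in batch C (median 1.15). The part of that difference in the sterol values was not tested. Idi1 measured 51, 51.5 and 43.7 CPM in MEP vehicle A, on the scale of the fit over both cell types, against 14, 18, 14.8 and 9.19 CPM in LSK vehicle A, without overlap (1.80 ± 0.34, adjusted p = 0.0001788, edgeR). Lss, the lanosterol synthase, read 83.1, 91.1 and 63 CPM in MEPs against 22.7, 47.9, 33.6 and 27.7 CPM in LSK cells (1.26 ± 0.29), also without overlap. Pmvk (1.38), Sqle (1.05), Nsdhl (1.0), Tm7sf2 (0.94) and Ebp (0.86) were higher in batch A too, and all 7 of these enzymes were called again in batch C. Acat2 and Fdps were called in batch A and not in batch C.

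Among fatty acid genes the cell types differed in 3 genes, the same in both batches. Lpin1, a phosphatidate phosphatase of glycerolipid synthesis, measured 255, 161 and 128 CPM in MEP vehicle A against 32.3, 75, 43.1 and 46.6 CPM in LSK vehicle A (1.88 ± 0.32, adjusted p = 4.053e-05, edgeR). Fads2 measured 237, 235 and 162 CPM against 70.3, 103, 60 and 45.4 CPM (1.60 ± 0.29). Scd1 had 5.47, 32 and 23.2 CPM in MEPs against 2.84, 1.82, 1.74 and 2.91 CPM in LSK cells (3.12 ± 0.58), with 1 MEP library near the LSK range. No regulator or transport gene was called, and Srebf2 ran the other way, with 144, 234 and 104 CPM in MEP vehicle A against 232, 521, 178 and 158 CPM in LSK vehicle A (-0.76 ± 0.40, adjusted p = 0.2304). The batch A count was 7 without MEP vehicle A replicate 2 or LSK vehicle A replicate 4, and the batch C count was 5 without either LSK vehicle C library.

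**Figure D5:**
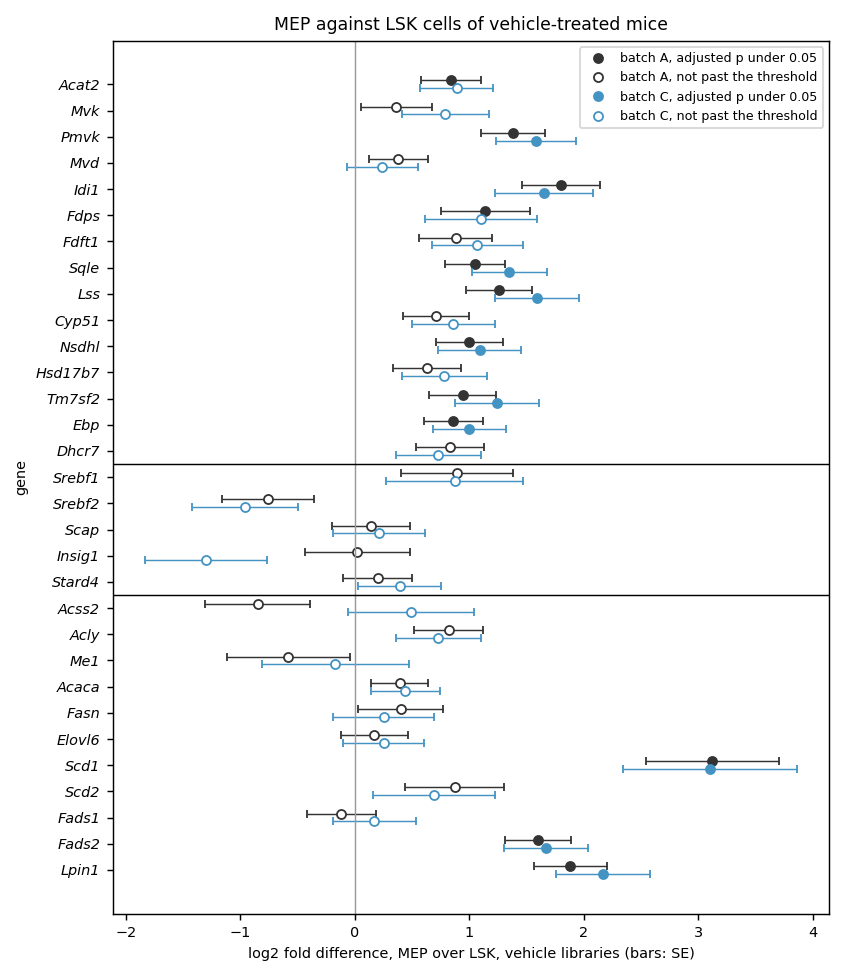
Fitted log2 fold differences (x axis, MEP over LSK, bars SE) of the 31 genes between vehicle libraries, batch A in black and batch C in blue, filled where the adjusted p was under 0.05. Sterol enzymes, in the top block, lay right of 0 in both batches, and Scd1, at 3.12 in batch A, lay farthest to the right.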

How the data were processed

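Gene counts from 32 libraries were used as deposited: the authors gave whole-number read counts per gene, not normalised, aligned with STAR and counted with featureCounts on mm10, per the submitters' processing notes. The sources used here do not give tool versions, annotation, strand setting or the treatment of multimapping reads. Per the labels' protocols, sorted cells went into TriZOL, RNA extraction used Direct-Zol, and the Takara HT-Seq kit gave paired-end libraries. Of 33924 genes, 933 had no count in any library.

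Each cell type was fitted apart over its 16 libraries with edgeR 4.0.16 in R 4.3.3 (filterByExpr with a minimum count of 10, TMM factors, quasi-likelihood F test, Benjamini-Hochberg adjustment over all genes, threshold 0.05). Groups were cell type, treatment and batch as the labels give them. MEP and LSK were compared in 1 fit over all 32 libraries, which treats cells of a shared description number as independent. CPM values printed are computed with the TMM-scaled library sizes. Totals were 11160696 to 28838622 counts per library in batch A and 26511752 to 55473241 in batch C, and members had between 3 and 31050 counts. The labels do not say that libraries came from separate animals, so p-values measure the spread between these samples. Within groups the lowest chi-square per degree of freedom over 37 pairs of libraries was 13.7, and no library was counted as a duplicate.

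The members and lists were chosen with earlier results of these data known. Values by library are given for members called in a treatment comparison at a mean logCPM of at least 2, up to 14 of them by adjusted p, and for Srebf1, Srebf2, Insig1 and Scap. At most 3 called genes of each wider list are named per comparison. Alternatives were RLE, upper quartile and unscaled normalisation (the last chosen after seeing the data), no filter, genes of at least 10 CPM alone, DESeq2 1.42.0, the compared groups alone, a replicate block (limma 3.58.1 voom across cell types) and leaving out each library. On simulated data made for MEP TAM day 7 against vehicle A (24102 genes, 200 changed), 37% of changes of 1 and 97% of changes of 2 on the log2 scale were recovered, and 12 unchanged genes were called. Promoters came from the RefSeq table of GRCm38.p6. Some genes of the wider lists are not reported here.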

Additional observations from a re-analysis of the deposited data

Results flagged for a closer look

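In MEPs the TAM effect differed between day 7 and day 3 for 6 genes by the test of that difference with edgeR, and all 6 were lower at day 7: Srebf1 by -3.48, Acss2 by -2.15, Scap by -2.08, Fads2 by -1.39, Fads1 by -1.2 and Sqle by -0.81 on the log2 scale. Of all genes averaging at least 10 CPM, 18.6% were lower in that comparison. In the LSK vehicle A group, Srebf1 read 285 CPM in replicate 2 and 137, 137 and 113 CPM in the other 3, and the gap to the nearest was wide for the range of 4 libraries. It was the 1 such case among 93 sets of 4 libraries examined, where chance gives about 1 in 20.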

How the results depend on the processing

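Among 23 calls of named members, 21 held under RLE scaling, 23 under upper quartile scaling, 22 with DESeq2, 21 without a count filter and 20 with the compared groups alone; 17 held with library totals alone, a setting chosen after seeing the data, and 17 of 22 with expressed genes alone. None of them changed sign. Totals alone and expressed genes alone ended the MEP day 7 calls of Acat2 (-0.37 and -0.46), Fads1 (-0.41 and -0.50), Mvd (-0.63 and -0.72) and Stard4 (-0.54 and -0.64), and totals alone that of Pmvk (-0.57). At MEP day 7 the members' median was -0.91 with TMM and -0.44 with totals, where the median of all genes moved from 0.21 to 0.73. The all-gene split there was 1778 lower and 350 higher, against 1561 and 1237 with expressed genes alone and 2221 and 889 with DESeq2. Upper quartile scaling changed the split at MEP day 3 to 198 lower and 185 higher, against 82 and 224. Counts of members that moved were those of MEP ruxolitinib (4, against 2 with RLE, 8 with totals, 2 without a filter and 1 with the compared groups alone), MEP over LSK vehicle A (12, against 24 with upper quartile), MEP over LSK vehicle C (10, against 18 with upper quartile and 2 with the compared groups alone) and ruxolitinib minus day 7 in MEPs (8, against 13 with RLE, 5 with expressed genes and 15 with the compared groups). The day 7 difference between cell types (0) became 8 with upper quartile, 1 with totals, 2 with DESeq2 and 6 with expressed genes, that at day 3 (0) became 1 with DESeq2, and LSK day 7 against day 3 (0) became 1 with DESeq2 and 1 with expressed genes. The cause of these changes was not tested.

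The sterol minus fatty acid median at MEP day 7 (-0.35) was -0.22 with expressed genes alone, and that under LSK ruxolitinib (0.14) was -0.02 with upper quartile and -0.02 with totals. Replicate numbers in the titles were not used to pair samples in the main fits. Deviations of same-numbered libraries from their group means correlated between -0.32 and 0.38. With so few libraries per group these values cannot decide whether the numbers pair samples. With the replicate block the MEP day 7 count was 13 and the median difference -0.14, LSK day 7 gave 1 member, LSK day 7 against day 3 gave 1, and Cyp51 and Idi1 missed the threshold at MEP day 3. Leaving out 1 library gave 2 to 6 members at MEP day 3, 8 to 16 at MEP day 7, 1 to 3 under MEP ruxolitinib, 0 to 0 at LSK day 3, 0 to 4 at LSK day 7, 0 to 0 under LSK ruxolitinib, 5 to 6 and 0 to 3 for day 7 against day 3 in MEP and LSK, 7 to 17 and 5 to 13 for MEP over LSK in vehicle A and C, 0 to 0, 0 to 2 and 0 to 1 for the differences between cell types at day 3, at day 7 and under ruxolitinib, and 6 to 14 for ruxolitinib minus day 7. The median difference ran from -0.37 to -0.08, -0.38 to -0.09 and -0.14 to 0.19 in MEP at day 3, at day 7 and under ruxolitinib, and from -0.07 to 0.05, 0.07 to 0.24 and -0.09 to 0.33 in LSK. Depth limits Insig1, Me1 and LSK Scd1 most, with as few as 3 counts for Me1.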
